A study of Mus musculus with 6 samples.

Results

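The genes described here are 9 genes of the hepatic sinusoidal endothelium, Stab1, Stab2, Lyve1, Clec4g, Oit3, Fcgr2b, Kdr, Flt4 and Tek, together with Vegfa, a growth factor gene on which this endothelium depends. They were followed in livers of mouse embryos at E18.5, shortly before birth, that lack the nuclear receptor gene Hnf4a in the hepatocyte lineage. Members were all probe sets whose single platform gene symbol is one of the 10 names, which gave 18 of the 45037 probe sets tested and 10 of 18193 genes. The null group was 3 livers of genotype HNF4LoxP/LoxP AlfpCre, named Null_61, Null_1191 and Null_1195. The control group was 3 livers of genotype HNF4LoxP/+AlfpCre (written Hnf4LoxP/+AlfpCre for one of them), named Control_8, Control_1192 and Control_1193. Every embryo therefore carried the Cre transgene and at least 1 loxP-flanked allele. The AlfpCre transgene makes Cre under control of elements of the albumin and alpha-fetoprotein genes, which are active in hepatocytes and their precursors and not in endothelial cells. Each array measured total RNA of whole liver, in which fewer cells of a type and less RNA per cell cannot be told apart.

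Liver sinusoids are capillaries lined by a fenestrated endothelium that sits against the hepatocytes without a continuous basement membrane and removes waste molecules from blood through scavenger receptors. Hepatocytes are a main source of VEGF-A in the liver, and endothelial cells bind it through the tyrosine kinase receptor encoded by Kdr. Flt4 encodes the receptor of VEGF-C and VEGF-D, and Tek encodes TIE2, the receptor of the angiopoietins. The arrays cannot tell which cells the Vegfa RNA came from.

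The promoter windows of the 3 genes that fell, Stab2, Kdr and Tek, are shown because their probe sets moved the same way. RefSeq's table of build GRCm38.p6 held a promoter entry for 8 of the 10 genes. The 250 bases before the start that the table uses lie at chr10:87007943-87008192 on the minus strand for Stab2, chr5:75978456-75978705 on the minus strand for Kdr and chr4:94739039-94739288 on the plus strand for Tek. The annotated span of each gene begins further upstream, so that 96, 250 and 203 of these bases lie inside the span of Stab2, Kdr and Tek. Each is written 5' to 3', with capitals marking GGAA or its reverse complement TTCC, the core of sites bound by ETS factors, a family known for its part in endothelial transcription.
Stab2: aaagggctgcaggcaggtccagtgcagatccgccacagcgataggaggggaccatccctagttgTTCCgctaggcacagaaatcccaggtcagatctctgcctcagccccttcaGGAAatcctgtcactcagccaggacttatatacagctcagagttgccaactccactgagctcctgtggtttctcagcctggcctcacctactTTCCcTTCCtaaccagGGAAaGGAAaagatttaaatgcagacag
Kdr: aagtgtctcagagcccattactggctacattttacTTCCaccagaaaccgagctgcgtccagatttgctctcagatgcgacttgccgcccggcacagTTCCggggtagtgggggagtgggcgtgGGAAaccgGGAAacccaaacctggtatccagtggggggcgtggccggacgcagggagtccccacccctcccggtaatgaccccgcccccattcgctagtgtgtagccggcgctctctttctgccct
Tek: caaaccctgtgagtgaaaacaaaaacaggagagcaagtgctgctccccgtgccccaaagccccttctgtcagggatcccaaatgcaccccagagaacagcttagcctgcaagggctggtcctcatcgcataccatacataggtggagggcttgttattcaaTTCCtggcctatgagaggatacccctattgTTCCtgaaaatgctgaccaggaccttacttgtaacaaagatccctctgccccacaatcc
The core occurred 6 times before Stab2, 4 times before Kdr and 2 times before Tek, both strands counted. Among 32851 promoter windows of this length 93.4% held it, with a median of 3 matches, so its presence does not set these genes apart. The GATA sequence GATAA, present in 22.6% of all windows, the hypoxia-response core ACGTG, in 16.6%, and CAAAGTC, part of the sequence that HNF4 binds, in 3.8%, had no match in these 3 windows on either strand. Of the 2 windows of Vegfa, one held a single ACGTG and the other a single GATAA, and neither held CAAAGTC.

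Values are deposited probe-set intensities on a linear scale, and ± gives the SD over 3 arrays. A log2 change is the null minus the control mean of log2(intensity + 32). This scale makes the changes of dim probe sets look smaller than they are, and folds are computed from it. Adjusted p values are from limma with Benjamini-Hochberg adjustment over all 45037 probe sets, and a probe set was called at an adjusted p under 0.05. The number of arrays limits the precision, and the labels do not say whether the embryos shared litters, so p values measure only the spread between these arrays. Single values follow the order Null_61, Null_1191, Null_1195 and Control_8, Control_1192, Control_1193.

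Array medians ran from 92.5 to 99.6 in the null arrays and from 91.8 to 98.5 in the control arrays. Null_61 and Control_8, whose title numbers lie apart from the rest, also stood apart in a probe set against the 5' end of 18S rRNA, at 33.5 in Null_61 and 42.1 in Control_8, against 449 to 616 in the other 4 arrays. A probe set against the middle of 18S rRNA read 69.3 and 74.7 in these 2 arrays, against 207 to 315 in the other 4. The 3' beta-actin probe set read 6361 and 4787, against 9094 to 9443. The 3' Gapdh probe set did not separate them, at 5091 and 5966 against 4542 to 5417. The labels do not call this difference a batch. Xist and Y-linked probe sets read Null_1191, Null_1195 and Control_8 as female and the other 3 embryos as male. The signal of Hnf4a was reduced but not lost. Of its 4 probe sets, 1421983_s_at (718 ± 166 in null and 1155 ± 40.6 in control livers) and 1450447_at (346 ± 60.9 and 517 ± 22.9) fell, with adjusted p values of 0.0434 and 0.0488 by limma. Both calls were lost without Null_1191 or any 1 of the controls, and that of 1450447_at also without Null_1195. In probe set 1427001_s_at the array of Null_1195, at 2778, was within the 2607 to 2877 of the control arrays. The sources used here do not place these probe sets relative to the deleted part.

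Part of the sinusoidal endothelial signature was lower in the null livers. Stab2, Kdr and Tek fell, by 0.89, 0.62 and 0.50 on the log2 scale, while Stab1, Oit3 and Vegfa did not pass the test. Of the 18 probe sets, 3 were called lower and 1, a dim probe set of Clec4g, was called higher, against 5.55% and 1.46% of all probe sets tested. In 6 probe sets all 3 null livers read below all 3 control livers, against 13.8% of all probe sets, and in 2 they read above them, against 13.6%. Counted by genes, each represented by the singly named probe set with the highest mean log2 value, 3 of 10 fell and 0 rose, against 7.85% and 1.56% of all genes. At an unadjusted p under 0.05 limma found 6 of these 10 genes, against 24.3% of all genes. The median log2 change of the 9 endothelial genes was -0.46, beside 0.01 over all 18193 genes. Since the genes were chosen with earlier results of these arrays known, this describes them and is not a test.

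**Figure D1:**
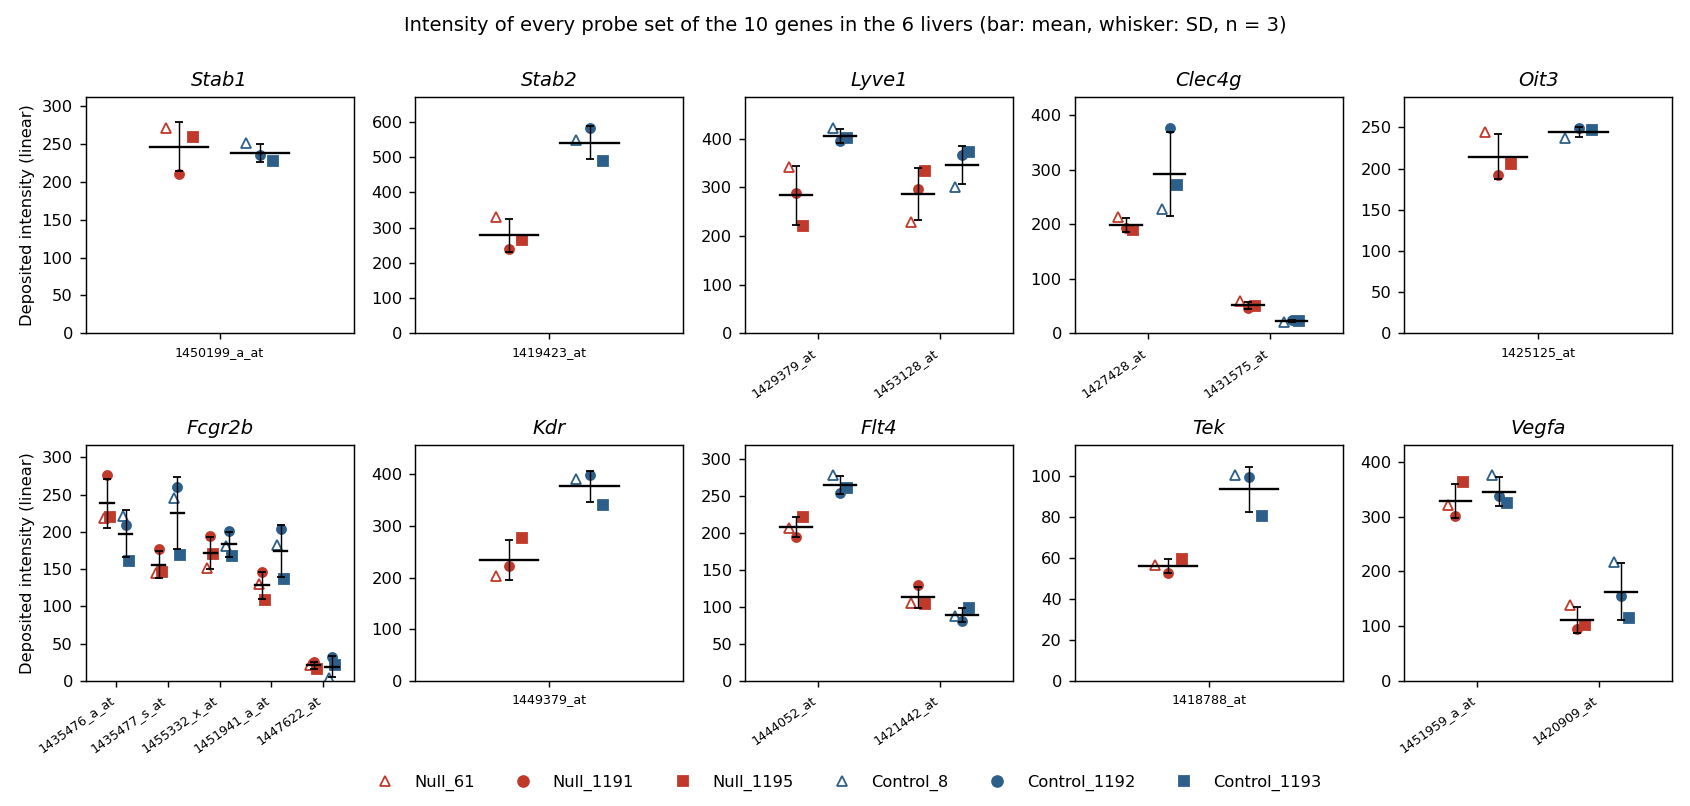
Deposited intensity (linear axis from 0, own scale in each panel) of all 18 probe sets of the 10 genes in each liver, with 3 null livers in red left of 3 control livers in blue, bars at the mean and whiskers of 1 SD. Stab2, Kdr and Tek show groups that do not overlap, while the probe sets of Fcgr2b, Flt4 and Clec4g differ among themselves in direction.

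Among the scavenger receptors Stab2 changed most. Stab2 encodes stabilin-2, the endocytic receptor that clears hyaluronan from blood. Its probe set 1419423_at read 330, 241 and 264 in Null_61, Null_1191 and Null_1195, against 549, 583 and 490 in Control_8, Control_1192 and Control_1193. Every null liver lay well below every control liver. The level was 278 ± 46.4 in null and 540 ± 46.9 in control livers (n = 3 each), 1.85-fold lower in null (log2 change -0.89, standard error 0.14, limma adjusted p = 0.0053). The difference was -0.68 between Null_61 and Control_8, a single pair, and -1.00 among the other 4 arrays. Of the 10 genes, Stab2 alone was called under all 15 alternative settings that gave it a value, with adjusted p values from 0.000899 to 0.0389.

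Stab1, the gene of the paralogous receptor stabilin-1, which macrophages also make, showed no such difference. Probe set 1450199_a_at read 271, 210 and 258 in the null livers and 251, 235 and 227 in the control livers. The null livers lay on both sides of the control range. The log2 change was 0.04, with a 95% interval of -0.25 to 0.33 and a limma adjusted p of 0.889. That interval does not reach the log2 change of Stab2, though the difference between the 2 genes was not tested.

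Lyve1, which encodes a membrane receptor of hyaluronan shared by sinusoidal and lymphatic endothelium and some macrophages, had 2 probe sets that both read lower on average. Probe set 1429379_at read 343, 288 and 220 in Null_61, Null_1191 and Null_1195, against 422, 395 and 401 in Control_8, Control_1192 and Control_1193. The groups did not overlap, yet the log2 change of -0.49 (standard error 0.15) did not pass the test (limma adjusted p = 0.106). Null_1195 was the lowest array in this probe set, and Null_61 the nearest to the controls. In 1453128_at the null livers read 229, 296 and 333 and the control livers 301, 366 and 372. Here Null_61 was the lowest null and Null_1195 lay inside the control range (log2 change -0.26, adjusted p = 0.38). With the mean of both probe sets standing for the gene, Lyve1 was called lower (log2 change -0.38, limma adjusted p = 0.0329). Probe set 1429379_at was called without Null_61 (-0.62, adjusted p = 0.0226), among the 4 arrays other than Null_61 and Control_8 (-0.60, adjusted p = 0.0433) and with the number run as a block (adjusted p = 0.0351).

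Clec4g encodes the lectin LSECtin, a marker of sinusoidal endothelium, and its 2 probe sets went opposite ways. In 1427428_at the null livers Null_61, Null_1191 and Null_1195 read 214, 193 and 189, against 228, 376 and 271 in Control_8, Control_1192 and Control_1193. The groups did not overlap, but the controls were spread widely and Control_8 lay close to the nulls (log2 change -0.46, standard error 0.17, limma adjusted p = 0.162). In 1431575_at, a probe set near the bottom of the arrays' range, the null livers read 58.6, 46.5 and 50.02 and the control livers 20.3, 24.0 and 22.6. This one was called higher (log2 change 0.62, standard error 0.13, limma adjusted p = 0.0256). Its level exceeded only 18.4% of all probe sets, so no fold is given, and the call was lost when any array other than Null_61 was left out (limma adjusted p from 0.0630 to 0.0846). With the mean of both probe sets the gene stood at 0.08 (adjusted p = 0.734). Which of the 2 follows the transcript of the sinusoidal cells was not tested.

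Oit3, a secreted protein gene with liver-restricted expression, read 245, 193 and 205 in Null_61, Null_1191 and Null_1195 and 238, 249 and 247 in Control_8, Control_1192 and Control_1193. Null_61 lay among the controls and the other nulls below them. The log2 change was -0.17 with a 95% interval of -0.45 to 0.11 (limma adjusted p = 0.463).

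Fcgr2b encodes the inhibitory Fc gamma receptor, through which sinusoidal endothelium takes up small immune complexes, and which B cells and macrophages also carry. None of its 5 probe sets was called by limma, and they disagreed in sign. The representative 1435476_a_at read 219, 276 and 220 in the null livers and 222, 210 and 161 in the control livers, a log2 change of 0.24 (adjusted p = 0.401). Probe set 1435477_s_at read 144, 176 and 146 in the null livers against 246, 260 and 170 in the control livers, a log2 change of -0.44 (adjusted p = 0.168). In both of these the groups overlapped. Probe sets 1451941_a_at and 1455332_x_at were at -0.36 and -0.08. Probe set 1447622_at, which averaged 20.7 in null and 19.0 in control livers, was too dim to be read. The suffixes _s_at and _x_at mark probe sets that can bind other transcripts, and Fcgr2b shares much sequence with its Fc receptor relatives, so these values are uncertain.

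**Figure D2:**
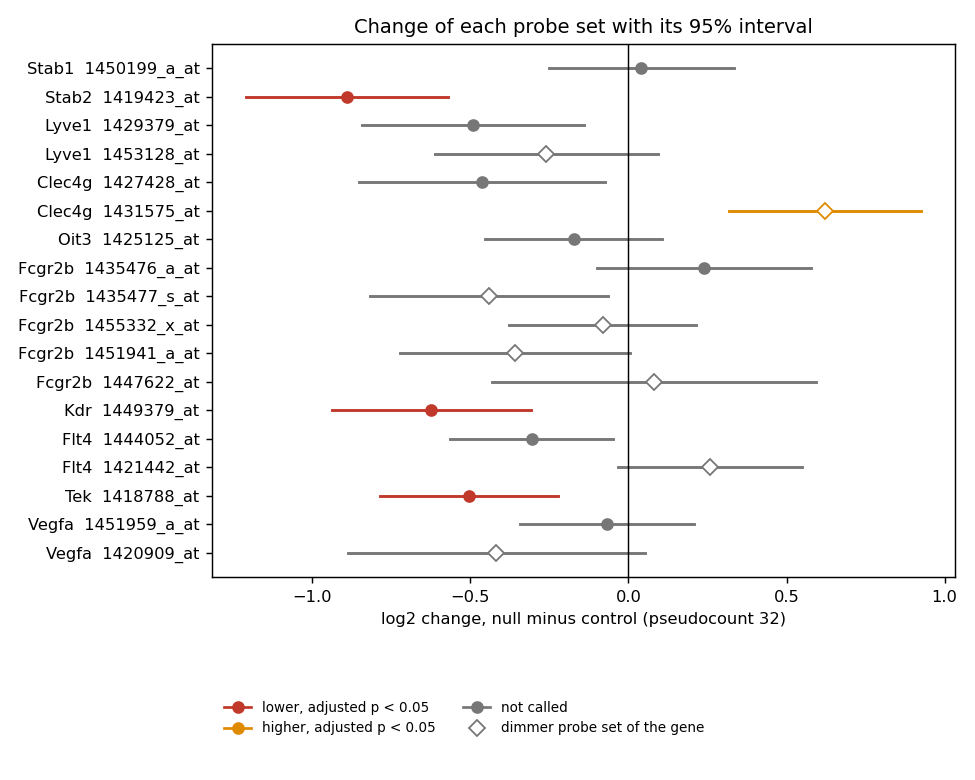
Log2 change, null minus control, of the 18 probe sets with 95% intervals from limma, where filled circles are the probe sets that represent a gene and open diamonds the others. Stab2 lies farthest to the left at -0.89, Kdr and Tek follow at -0.62 and -0.50, and 1 dim probe set of Clec4g lies to the right at 0.62.

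The receptors of the VEGF and angiopoietin pathways moved unequally. Kdr, the gene of VEGF receptor 2, read 203, 223 and 277 in Null_61, Null_1191 and Null_1195 by its only probe set, 1449379_at, against 390, 398 and 341 in Control_8, Control_1192 and Control_1193. The groups did not overlap. It averaged 234 ± 38.3 in null and 376 ± 30.6 in control livers (n = 3 each), 1.54-fold lower in null (log2 change -0.62, standard error 0.14, limma adjusted p = 0.03). The difference was -0.85 between Null_61 and Control_8 and -0.51 among the other 4 arrays, where it was not called (adjusted p = 0.0735). The call was also lost with quantile normalization (adjusted p = 0.0589), without Null_1191 (0.107), Control_8 (0.108), Control_1192 (0.134) or Control_1193 (0.0658).

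Tek read 56.6, 52.6 and 59.2 in Null_61, Null_1191 and Null_1195 and 100.1, 99.3 and 80.5 in Control_8, Control_1192 and Control_1193. The null livers were close together and all below the controls. The log2 change was -0.50 (standard error 0.12, limma adjusted p = 0.0449), a marginal call. Both group means lie under the highest array median of 99.6, so no fold is given. The call was lost when any 1 of the 6 arrays was left out (limma adjusted p from 0.0505 to 0.173), and the log2 change then lay between -0.58 and -0.46.

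Flt4 had 2 probe sets with opposite differences, neither of them called. Probe set 1444052_at read 207, 194 and 222 in Null_61, Null_1191 and Null_1195 and 278, 254 and 261 in Control_8, Control_1192 and Control_1193 (log2 change -0.31, limma adjusted p = 0.162). Probe set 1421442_at read 105, 129 and 104 in the null livers and 87.3, 80.8 and 98.6 in the control livers (log2 change 0.26, adjusted p = 0.291). In each of them the groups did not overlap, and the mean of both gave a log2 change of -0.02.

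Vegfa, the ligand of this pathway, was not called in either of its probe sets. Probe set 1451959_a_at read 322, 301 and 363 in Null_61, Null_1191 and Null_1195 and 375, 337 and 325 in Control_8, Control_1192 and Control_1193. The groups overlapped. The log2 change was -0.07, with a 95% interval of -0.34 to 0.21 (limma adjusted p = 0.792), and it was 0.054 with quantile normalization. Probe set 1420909_at read 139, 94.1 and 102 in the null livers and 218, 156 and 114 in the control livers. Here Null_61 lay inside the control range and the other nulls below it (log2 change -0.42, 95% interval -0.89 to 0.05, adjusted p = 0.293). Within Null_61 and Control_8 the difference in this probe set was -0.55, and among the other 4 arrays -0.35.

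A list of 15 further measured genes held other VEGF and angiopoietin ligands, receptors and co-receptors, and also Apln, Aplnr, Dll4, Notch1, Pdgfb and Hgf, genes of other vascular signals. Limma called 0 of them, and 1 had an unadjusted p under 0.05, against 24.3% of all genes. That gene, named after its values were seen, is Vegfc, a ligand of the receptor encoded by Flt4. Vegfc read 36.6, 42.2 and 43.6 in Null_61, Null_1191 and Null_1195, against 63.3, 80.8 and 59.0 in Control_8, Control_1192 and Control_1193 (log2 change -0.45, limma adjusted p = 0.0941). Its groups did not overlap, and at these dim levels no fold is given. The median log2 change of the list was -0.05. The list's brightest members were Dll4, the Notch ligand of sprouting endothelium, at 216 ± 50.9 in null and 246 ± 40.0 in control livers, and Nrp1, a VEGF co-receptor, at 230 ± 60.3 and 199 ± 13.2 (n = 3 each). Their limma adjusted p values were 0.638 and 0.636.

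A list of the HIF pathway and HIF targets, where HIF stands for the hypoxia-inducible factors, held 23 measured genes. Of these 2 fell and 1 rose, against 7.85% and 1.56% of all genes, and the list median was -0.01. At an unadjusted p under 0.05 limma found 11 of them, against 24.3% of all genes. The rises in this list numbered 4 with quantile normalization and 3 without Null_61. Epas1, the gene of HIF-2 alpha, which endothelial cells as well as hepatocytes express, fell to 349 ± 72.2 in null livers, against 958 ± 38.5 in control livers (log2 change -1.39, standard error 0.14, limma adjusted p = 0.000456). Its other probe set was not called, and the mean of both gave -0.80. Bnip3, a mitochondrial HIF target, fell by 0.96 on the log2 scale (limma adjusted p = 0.0013). Hk2, a hexokinase, rose to 305 ± 56.1 in null livers, against 116 ± 31.5 in control livers (limma adjusted p = 0.00503).

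Of 25 measured endothelial genes that are not restricted to sinusoids 2 fell and 0 rose, against 7.85% and 1.56% of all genes, and 20 were on the lower side. Their median log2 change was -0.13. The falls numbered 4 without Null_61, 5 when each gene's probe sets were averaged and 6 when the number run was a block. Their summed intensity ran from 4561 to 5019 in the null livers and from 5283 to 5527 in the control livers, so the sums did not overlap. The sum over all 18193 genes was lower in the null livers too, at 5402700 to 5733150 against 6145700 to 6440310. A lower sum was thus not confined to these genes, and whether the endothelial sum fell by more was not tested. Such sums weigh bright genes most, and the median log2 change over all genes was 0.01. Ptprb, the endothelial phosphatase VE-PTP, which acts on TIE2, fell to 133 ± 32.1 in null livers, against 364 ± 44.3 in control livers (log2 change -1.28, standard error 0.16, limma adjusted p = 0.00169). Of its 2 other probe sets 1 fell too, and the mean of all gave -0.69. Vwf, the gene of von Willebrand factor, which megakaryocytes also make, fell to 147 ± 13.2 in null livers, against 328 ± 61.1 in control livers (log2 change -1.00, limma adjusted p = 0.00439). Chosen after the values were seen, the defining markers Cdh5 and Pecam1 stood at -0.06 and -0.10, Tie1, the partner receptor of TIE2, at -0.55 and Icam2 at -0.51, none of them called (limma adjusted p = 0.817, 0.79, 0.0641 and 0.0533). Other genes of the list went the other way. Erg and Tal1, also chosen after the values were seen, stood at 0.45 and 0.42 with groups that did not overlap. Neither was called (limma adjusted p = 0.216 and 0.133). Tal1 was the brightest gene of this list, at 1063 ± 158 in null and 787 ± 98.8 in control livers, and so weighs most in its sums. Which cells the Tal1 RNA came from was not tested.

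Of 20 further genes expressed by sinusoidal endothelium 4 fell and 1 rose, against 7.85% and 1.56% of all genes, and the list median was -0.06. At an unadjusted p under 0.05 limma found 8 of these 20 genes, against 24.3% of all genes. Aass, a lysine-degrading enzyme that hepatocytes also express, fell most, to 52.4 ± 13.9 in null livers, against 395 ± 55.3 in control livers (log2 change -2.34, standard error 0.16, limma adjusted p = 2.99e-05). Ehd3, an endocytic recycling protein of sinusoidal endothelium, fell to 390 ± 77.2 in null livers, against 768 ± 79.3 in control livers (log2 change -0.93, limma adjusted p = 0.00636). Its other probe set was not called. The remaining falls, named after their values were seen so that the count is complete, were Dnase1l3, a secreted nuclease, at -0.85 (adjusted p = 0.00864, lost without Control_1192) and Tfpi, an inhibitor of coagulation, at -0.64 (adjusted p = 0.0364, lost without Null_1195, Control_8, Control_1192 or Control_1193). With the mean of all their probe sets these genes stood at -0.33 and -0.08 and were not called. Lifr, the receptor of leukemia inhibitory factor, which hepatocytes also express, rose to 1375 ± 483 in null livers, against 393 ± 86.3 in control livers (log2 change 1.69, limma adjusted p = 0.00329), and neither of its 2 other probe sets was called.

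**Figure D3:**
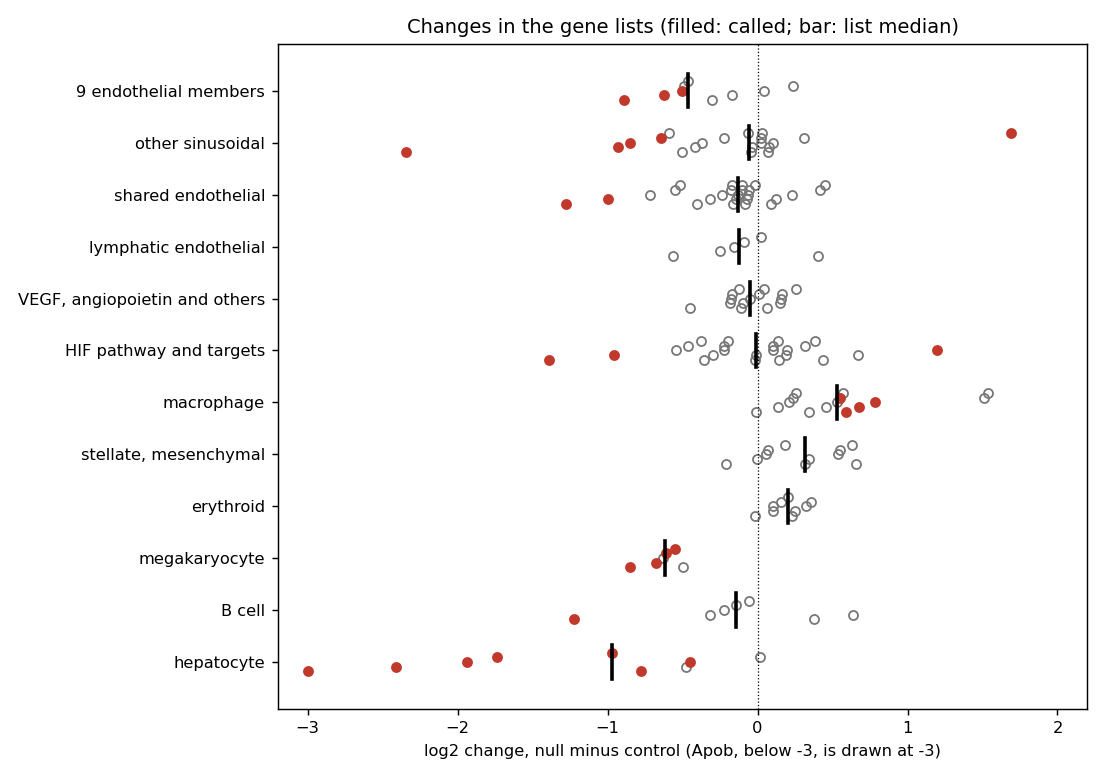
Log2 change, null minus control, of each measured gene in 12 groups, with filled points for called genes and a bar at the group's median (Apob lies beyond the left edge and is drawn at it). The 9 endothelial members have a median of -0.46, the shared endothelial genes -0.13, the macrophage genes 0.53 and the hepatocyte genes -0.97.

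Markers of other cells moved as well. Of 15 macrophage genes 4 rose and 0 fell, against 1.56% and 7.85% of all genes. The median log2 change of the macrophage genes was 0.53, with summed intensities from 9539 to 15062 in the null livers and from 7419 to 8818 in the control livers. Timd4, Clec4f and Adgre1, markers of Kupffer cells and their fetal precursors, rose by 0.59, 0.55 and 0.68 on the log2 scale (limma adjusted p = 0.0263, 0.0281 and 0.0342), and Mpeg1, named after its values were seen, is the remaining call. All 4 were lost without Control_1192 or Control_1193 and with a term for embryo sex, where 2 of the null and 1 of the control embryos read as female. In the list as a whole there was 1 call without Null_1191, and there were 2 without Null_1195. Of the 4 genes, only Timd4 kept its call without Null_1195. Over 16 alternatives the rises in this list numbered 0 to 8. Stab1, Lyve1 and Fcgr2b are also made by macrophages, and the part of macrophage RNA in their values was not tested. Of 7 B cell genes 1 fell and 0 rose, against 7.85% and 1.56% of all genes. The fall was that of Ms4a1, the gene of CD20, by 1.22 on the log2 scale (limma adjusted p = 0.00196), while its other probe set was not called. The B cell sums were 751 in Null_61 and up to 1261 in the other nulls, and 1109 to 1149 in the control livers.

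Megakaryocytes share Tek and Vwf with endothelium, and of 6 measured genes of that lineage 4 fell, against 7.85% of all genes. The list's median log2 change was -0.62, with sums from 2871 to 3388 in the null livers and from 4115 to 5194 in the control livers. The sum over all genes was lower in the null livers too, at 5402700 to 5733150 against 6145700 to 6440310. Whether the megakaryocyte sums fell by more was not tested. Pf4, Gp1bb and Itga2b fell by 0.55, 0.85 and 0.61 on the log2 scale (limma adjusted p = 0.0179, 0.0227 and 0.0365), and Treml1, named after its values were seen, is the remaining call. With the mean of its probe sets Gp1bb stood at -0.18 and was not called. Each of these calls was lost without Control_8, Control_1192 or Null_1191. With quantile normalization 1 fall remained, with a term for embryo sex 1, and among the 4 arrays other than Null_61 and Control_8 there were 2. Their part in the lower Tek and Vwf signal was not tested. Limma called 0 of 6 lymphatic endothelial genes, 0 of 11 stellate and mesenchymal genes and 0 of 9 erythroid genes, with 2, 3 and 3 at an unadjusted p under 0.05, against 24.3% of all genes. The list medians were -0.12, 0.32 and 0.20. The brightest of these were Reln and Itga9 (adjusted p = 0.175 and 0.117), Col3a1 and Dcn (0.194 and 0.755), and Slc4a1 and Alas2 (0.177 and 0.622). Of 9 hepatocyte genes 7 fell, against 7.85% of all genes. The 2 not called were Hnf4a itself, by 1427001_s_at (log2 change -0.48, limma adjusted p = 0.194), and Alb, named after its values were seen. Alb read 10651 ± 460 in null and 10532 ± 270 in control livers (log2 change 0.02, limma adjusted p = 0.928). The falls were led by the apolipoprotein genes Apob, Apoa2 and Apoa1 (limma adjusted p = 3.19e-06, 2.95e-05 and 9.24e-05), and the median of the hepatocyte genes was -0.97. The difference between this median and those of the endothelial lists was not tested.

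Array by array, the median of the 9 endothelial members against the mean of the controls stood at -0.31, -0.45 and -0.40 in Null_61, Null_1191 and Null_1195. It was 0.05, 0.07 and -0.07 in Control_8, Control_1192 and Control_1193. The null livers were alike in this median, while the macrophage median was 0.82 in Null_61 and 0.34 and 0.35 in Null_1191 and Null_1195. The shared endothelial genes had medians of -0.15, -0.19 and -0.13 in the 3 null livers, and 0.02, 0.02 and -0.03 in the control livers.

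**Figure D4:**
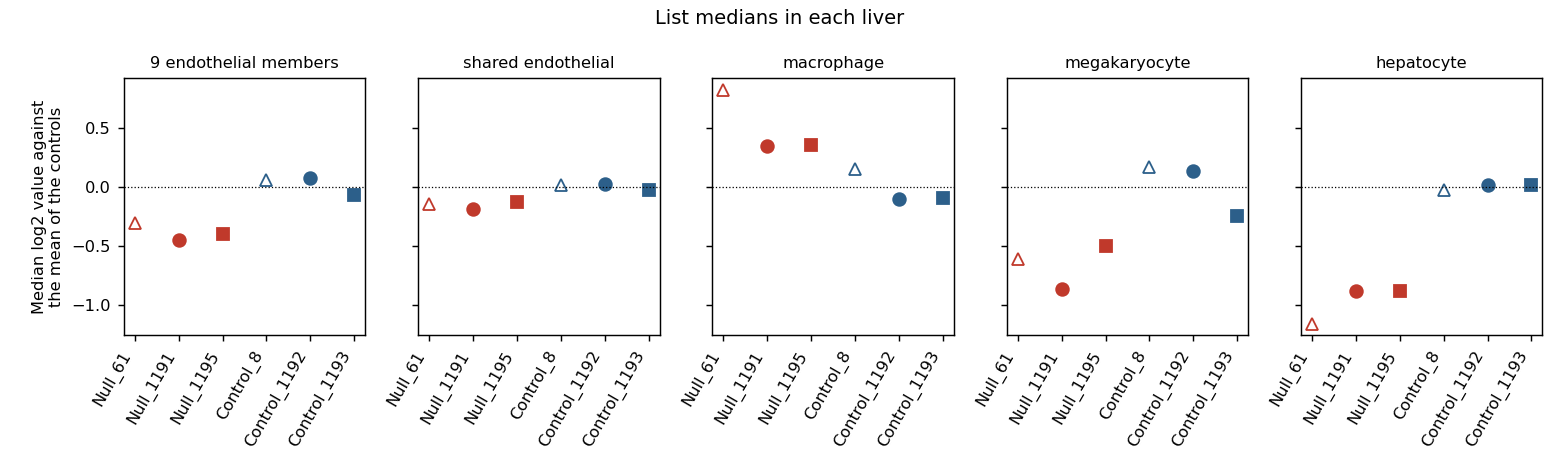
Median log2 value of 5 gene groups in each liver, set against the mean of the control livers, with null livers in red left of control livers in blue. The 9 endothelial members lie between -0.45 and -0.31 in the null livers, while the macrophage median is highest in Null_61 at 0.82.

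No probe set of Vegfa was called, so the search for genes with a like pattern was made for Stab2 alone. Among 9095 genes above the median level, those with the smallest root mean square difference from its centred log2 values over the 6 arrays were Agtr1a, the angiotensin II receptor gene, at 0.0385, Gnpnat1, an enzyme of the hexosamine pathway, at 0.0472, and Cept1, an enzyme of phospholipid synthesis, at 0.0493. Agtr1a read 414, 314 and 342 in Null_61, Null_1191 and Null_1195, against 733, 785 and 652 in Control_8, Control_1192 and Control_1193. Since all of them follow the same contrast of 3 against 3 livers, the likeness holds little beyond the group difference and the order of the arrays within each group.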

How the data were processed

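RNA of whole fetal livers at E18.5, purified on columns, was biotin-labelled and hybridised to Affymetrix arrays, per the labels' protocols, with 1 array per liver. The authors deposited probe-set intensities on a linear scale, as the values show. From 0.909% to 1.34% of an array's values were negative, which points to a background subtraction. The summarisation of probes and the scaling of arrays were not given in the sources used here.

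Negative values were raised to 0 before taking log2(intensity + 32). Array medians differed by at most 0.0877 on this scale, and the deposited scaling was kept. Control probe sets (64 of 45101) were left out. Of the others, 34945 have 1 platform symbol, 932 several and 9160 none, and 34741 were matched to RefSeq (GRCm38.p6) through Entrez numbers. The files name no build, and coordinates are given only for RefSeq's own sequences. No pair of arrays was identical.

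Groups come from the titles. They were compared two-sided with limma 3.58.1 (R 4.3.3) over all 6 arrays, with an intensity trend and no covariate. In data simulated for this comparison, 67, 67 and 66 of 45037 probe sets were given log2 changes of 0.5, 1 and 2. Limma recovered 2.99%, 92.5% and 98.5% of these, in that order, and made 18 false calls. The real arrays gave 2501 probe sets called lower and 658 called higher. Recovery with that many differing probe sets was not tested. The text names the 10 members, Hnf4a, and from each list up to 3 called genes by adjusted p plus the leading call in the opposite direction, or the 2 brightest genes where none was called. For the most clearly called member it also names the 3 genes of most similar pattern. Outside this rule, and after their values were seen, it names Vegfc, Cdh5, Pecam1, Tie1, Icam2, Erg, Tal1, Dnase1l3, Tfpi, Mpeg1, Treml1 and Alb. The genes among the closing observations were named in the same way. The members and the 11 lists were chosen with earlier results of these data known. The alternatives tried are in the closing section.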

Additional observations from a re-analysis of the deposited data

How the results depend on the processing

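Stab2 kept its direction and its call in all 15 alternatives run for it (log2 change from -1.01 to -0.75). Kdr and Tek kept their direction in all 15 and 14 alternatives that gave them a value and their call in 9 and 4, and the dim Clec4g probe set 1431575_at was called in 8 of 14. Leaving out 1 array at a time gave 1 to 3 member probe sets called lower and 0 to 1 called higher, and 1 to 3 member genes called lower, against 3, 1 and 3 with all arrays. With only probe sets above the median level, which drops Tek and the dim Clec4g probe set, and among the 4 arrays other than Null_61 and Control_8, the number of member probe sets called higher was 0. In those 4 arrays the 3 called lower were Stab2, Lyve1 and Clec4g. Signs turned for values near 0. Vegfa 1451959_a_at stood at 0.054 with quantile normalization. Stab1 ranged from -0.023 to 0.14 when single arrays were left out, and Fcgr2b 1447622_at from -0.15 to 0.26, with -0.17 in the 4 arrays. Over all genes 283 rose and 1428 fell. The rises numbered 617 with quantile normalization, 747 with the block for the run of title numbers, 170 with a term for embryo sex, and 98 to 558 with single arrays left out, while the falls then numbered 906 to 1689. Of the genes in the 11 lists together 6 rose and 20 fell. The rises were 16 with quantile normalization, 17 with the block, 12 in the 4 arrays, 3 with the sex term and 2 to 11 with single arrays left out, where the falls were 13 to 25. The causes of these differences were not tested. The groups share no replicate number. No paired analysis was possible because of this. With 3 arrays a group, how often limma calls true changes near 0.5 on the log2 scale in the real arrays was not tested. Dim probe sets such as that of Tek lie close to the background.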

Other observations

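Sinusoidal endothelium is also known as a source of signals to hepatocytes, and these genes, named after their values were seen, were not called by limma. Rspo3, an enhancer of Wnt signalling, read 459 ± 65.0 in null and 716 ± 169 in control livers (n = 3 each), a log2 change of -0.59 (adjusted p = 0.106). Wnt2 read 34.5 ± 15.7 in null and 52.9 ± 10.2 in control livers, a log2 change of -0.37 (adjusted p = 0.313). Wnt2 is dim on these arrays, so its change is poorly measured. Bmp2, which acts on hepcidin, stood at 0.10 (adjusted p = 0.741), and Bmp6 was too dim to be read. Gata4, a transcription factor of sinusoidal identity, read 80.9 ± 16.9 in null and 118 ± 10.7 in control livers with groups that did not overlap (log2 change -0.42, adjusted p = 0.134). Maf, another such factor, read 502 ± 60.8 in null and 518 ± 41.0 in control livers (log2 change -0.04, adjusted p = 0.875).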
